A study of Mus musculus with 2 samples.

Results

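Wnt signalling genes were examined for ARID4B on chromatin of the newborn mouse testis. The set is a list of 54 genes, of 21887 protein-coding genes in all: 19 Wnt ligands, 10 Fzd receptors, the co-receptors Lrp5 and Lrp6, 12 intracellular effectors, 6 genes of the R-spondin axis and 5 secreted inhibitors. A gene was counted when an ARID4B interval overlapped its record in the mouse build GRCm38, or the 1 kb on either side, by at least 1 bp. By this rule 34 of the 54 genes had an interval and 20 had none. The list of intervals came from 1 chromatin immunoprecipitation library made from 108 pooled testes of wild type mice of a C57BL6/J and 129/SvEv hybrid background at postnatal day 1.5, set against 1 input DNA library of the same tissue. It held 6632 intervals, each with a score from the authors. Higher scores are read here as stronger evidence, which no source states, and the words strong, weak and best rest on that reading. The scores ran from 70.02 to 1760.61 with a median of 125.0, and the median width was 1084 bp. There was no replicate, no test between groups was possible, and the read depth of either library is unknown. The pool mixed all cell types of the testis, so the cells behind an interval are not known, and how far a score follows the share of cells or the strength of binding cannot be told apart. The list holds no RNA levels, so the labelled tissue could not be checked against expressed markers.

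Wnt proteins are secreted, lipid-modified signals that bind Frizzled receptors, encoded by the Fzd genes, together with Lrp5 or Lrp6. Binding recruits Dishevelled (Dvl1, Dvl2, Dvl3) and stops a destruction complex of Axin, Apc and the kinase Gsk3b from marking beta-catenin (Ctnnb1) for breakdown, and stable beta-catenin then joins Tcf and Lef factors on target genes. In the mouse gonad, Wnt4, Rspo1 and beta-catenin promote ovarian fate and oppose the testis programme, and Wnt5a from Sertoli cells is known to support spermatogonial stem cells. ARID4B belongs to the SIN3-histone deacetylase complex.

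The starts of 5 genes show the contrast that ran through the set: a receptor with a wide interval and one with none, the effector with the best score, and 2 ligands of like base composition of which 1 had an interval. Each stretch runs from 250 bases before to 50 bases after an annotated start on the gene's own strand, all on the plus strand of GRCm38.p6, from RefSeq. Capitals mark each match of GGGCGG or its reverse complement CCGCCC, the GC box that Sp and Klf factors bind, and matches that overlap run together. The stretches are Fzd7 at chr1:59481897-59482196, Fzd10 at chr5:128600856-128601155, Axin2 at chr11:108920099-108920398, Wnt4 at chr4:137277385-137277684 and Wnt9a at chr11:59306680-59306979.
Fzd7: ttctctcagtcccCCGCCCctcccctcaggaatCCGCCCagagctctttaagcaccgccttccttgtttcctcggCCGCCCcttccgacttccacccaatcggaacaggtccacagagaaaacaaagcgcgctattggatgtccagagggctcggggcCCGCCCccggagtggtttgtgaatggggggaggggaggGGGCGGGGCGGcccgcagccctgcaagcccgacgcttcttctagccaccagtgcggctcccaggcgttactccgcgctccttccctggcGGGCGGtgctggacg
Fzd10: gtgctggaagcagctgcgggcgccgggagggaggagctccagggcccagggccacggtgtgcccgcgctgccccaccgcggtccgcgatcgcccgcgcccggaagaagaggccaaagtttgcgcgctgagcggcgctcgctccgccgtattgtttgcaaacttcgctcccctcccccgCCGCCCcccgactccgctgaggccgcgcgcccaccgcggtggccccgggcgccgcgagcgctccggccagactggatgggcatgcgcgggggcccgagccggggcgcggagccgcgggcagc
Axin2: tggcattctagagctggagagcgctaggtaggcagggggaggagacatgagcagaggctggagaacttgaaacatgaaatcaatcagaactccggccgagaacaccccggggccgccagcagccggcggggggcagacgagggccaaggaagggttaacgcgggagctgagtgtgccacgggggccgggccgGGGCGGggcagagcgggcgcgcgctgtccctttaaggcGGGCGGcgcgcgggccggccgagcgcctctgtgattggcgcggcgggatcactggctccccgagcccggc
Wnt4: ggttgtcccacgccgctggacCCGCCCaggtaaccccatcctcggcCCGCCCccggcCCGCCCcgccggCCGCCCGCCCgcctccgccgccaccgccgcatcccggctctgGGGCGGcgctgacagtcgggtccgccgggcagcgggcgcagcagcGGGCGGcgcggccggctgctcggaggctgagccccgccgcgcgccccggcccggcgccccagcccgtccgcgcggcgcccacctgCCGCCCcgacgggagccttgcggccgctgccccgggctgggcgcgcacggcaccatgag
Wnt9a: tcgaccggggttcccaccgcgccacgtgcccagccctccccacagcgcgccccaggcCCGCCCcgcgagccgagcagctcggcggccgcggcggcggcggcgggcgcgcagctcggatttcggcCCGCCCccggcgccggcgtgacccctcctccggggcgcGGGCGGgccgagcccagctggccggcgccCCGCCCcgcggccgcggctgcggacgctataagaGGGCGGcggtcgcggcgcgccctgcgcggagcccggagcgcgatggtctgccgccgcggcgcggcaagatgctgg

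Of these stretches, 194 bases of Fzd7, 195 of Axin2 and 117 of Wnt4 lay inside the gene's ARID4B interval, and none of Fzd10 or Wnt9a. A GC box was found 7 times at Fzd7, 1 time at Fzd10, 2 times at Axin2, 8 times at Wnt4 and 5 times at Wnt9a. The start of Wnt9a, with 83.3% G+C and 58 CpG dinucleotides, was close in both to that of Wnt4, with 84.3% and 51.

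Intracellular effectors had intervals most often of the 3 main classes, and ligands least often. An interval was present at 11 of 12 effectors (91.7%, 95% Clopper-Pearson interval 61.5 to 99.8%), 7 of 10 Fzd receptors (70%, 34.8 to 93.3%) and 8 of 19 ligands (42.1%, 20.3 to 66.5%). The background was 30.7% of all protein-coding genes. The effector and Fzd intervals lie above that share, and the ligand interval includes it. Both co-receptors, 3 of 6 genes of the R-spondin axis and 3 of 5 secreted inhibitors had one. Over all 54 genes the share was 63.0% (48.7 to 75.7%). These confidence intervals cover counting error only. The genes are not replicates, were not sampled at random and were chosen with earlier results of these data known. Neither the difference between classes nor that from the background was tested.

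**Figure D1:**
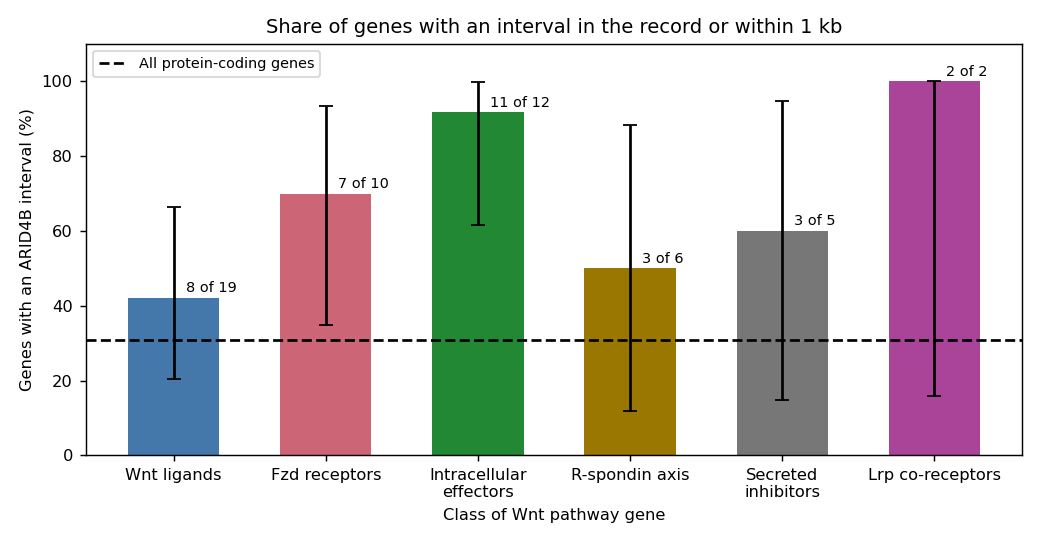
Percentage of genes in each class of the Wnt pathway with an ARID4B interval in the record or within 1 kb; bars give the share, error bars the 95% Clopper-Pearson interval, and the dashed line the 30.7% of all protein-coding genes. Effectors stand at 91.7%, Fzd receptors at 70% and ligands at 42.1%.

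A longer record can catch an interval more easily, and the classes differ in length. The median record was 22.9 kb for ligands, 4.59 kb for Fzd receptors and 50.7 kb for effectors, against 17.2 kb over all protein-coding genes. Among records under 10 kb, 7 of 8 Fzd genes had an interval, where 20.3% of all protein-coding genes of that length did. Among records of 10 kb or longer, 10 of 11 effectors and 8 of 16 ligands had one, where the background was 36.5%. The Fzd share was thus high among short genes, for which the background is lower. With intervals counted only within 1 kb of a record end, 32 of the 54 genes remained, where the background was 27.1%. The 2 that dropped out were Axin2 and Wnt5b, whose intervals lie farther inside the record.

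By class median, the Fzd receptors had the highest scores of the 3 main classes, although single scores of the classes overlapped. The best interval scored above the median of the whole list at all 7 Fzd receptors with an interval, at 9 of the 11 effectors and at 4 of the 8 ligands. Over all genes with an interval, 54.4% had such a best score, and counted over all protein-coding genes 16.7% did. Median best scores were 202.1 for Fzd receptors, 150.0 for effectors and 114.7 for ligands, beside 131.8 for all protein-coding genes with an interval. The ranges were 126.91 to 490.82 for Fzd receptors, 85.52 to 490.18 for effectors and 76.31 to 643.65 for ligands. The highest ligand score, counted for Wnt5b and among the 4 above the list median, belongs to an interval inside Fbxl14. The next highest ligand score was 168.84, at Wnt4. The ligand median rests on 7 different intervals because Wnt3 and Wnt9b share 1.

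**Figure D2:**
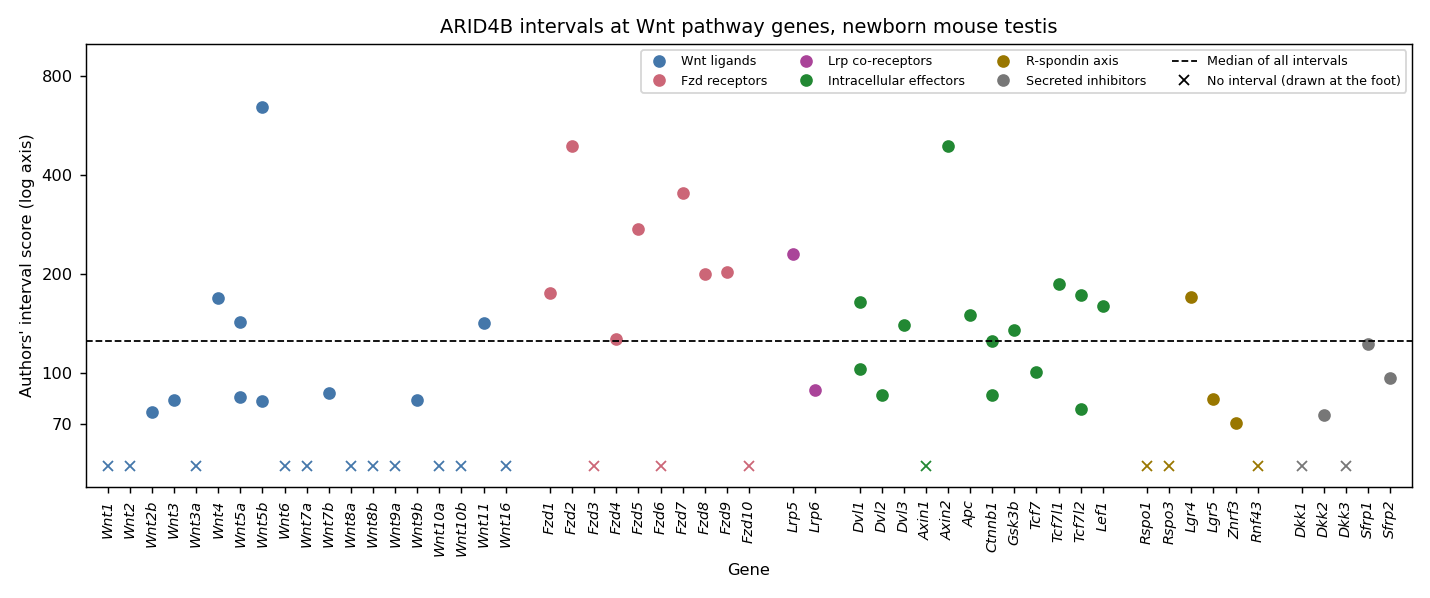
Authors' score, on a log axis, of every ARID4B interval at each of the 54 genes, coloured by class; crosses at the foot are genes with none and the dashed line is the median of all 6632 intervals, 125.0. All 7 Fzd receptors with an interval lie above the line, whereas 4 of 8 ligands have no interval above it.

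Fzd genes, which encode the seven-pass receptors for Wnt proteins, had wide intervals. At Fzd1, Fzd5, Fzd7 and Fzd9 they reached from the annotated start at least 1814 bp into the gene, and at Fzd4 849 bp. The interval at Fzd2 had the highest score of the family, 490.82 (chr11:102604709-102606776, 2068 bp, rank 123 of all 6632). Fzd7 followed with 353.01 (chr1:59482003-59484580, 2578 bp) and Fzd5 with 273.89 (chr1:64734557-64737856, 3300 bp). Scores of the other receptors with an interval ran from 126.91 to 202.11.

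Fzd9 scored 202.11 (chr5:135249233-135251598, 2366 bp) and Fzd8 199.18 (chr18:9211946-9215047, 3102 bp). Fzd1, a close relative of Fzd2 and Fzd7, scored 175.12 (chr5:4756057-4758249, 2193 bp). Fzd4, which also serves as the receptor for Norrin, had the lowest and narrowest, with 126.91 (chr7:89403725-89405215, 1491 bp). The start of Tmem135, a gene on the opposite strand, also lay inside the Fzd4 interval, so its owner is uncertain. Fzd4 was the receptor lost when intervals near a second protein-coding gene were left out.

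Width set the Fzd intervals apart from most of the list in description. At 2 kb or wider were 6 of the 7, against 5.11% of all intervals and 2 of the 26 different best intervals of the other genes in the set. The interval covered between 14.8% of the record, at Fzd4, and 86.0%, at Fzd9, with a median of 50.6%. Over the 1609 protein-coding genes with records under 10 kb and an interval, the median cover was 16.6% and the median width 1213 bp. Wider intervals in this list tend to have higher scores, so width and score are not independent. The 339 intervals of 2 kb or wider had a median score of 343.1, which Fzd2 and Fzd7 exceeded and Fzd1, Fzd5, Fzd8 and Fzd9 did not.

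**Figure D3:**
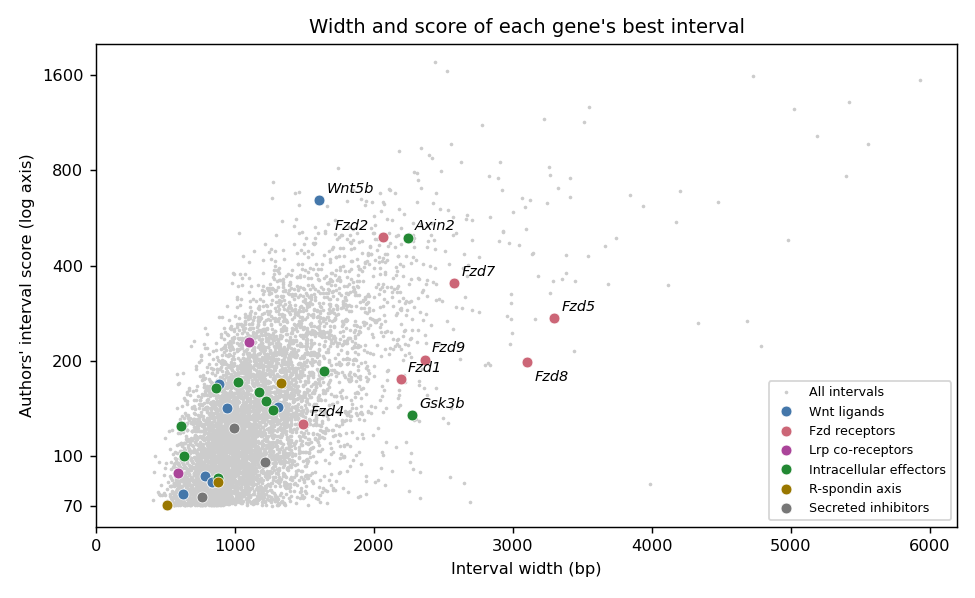
Width in bp and authors' score, on a log axis, of the best interval of each gene in the set (coloured by class) over all 6632 intervals (grey). Of the 7 Fzd intervals, 6 are at least 2 kb wide, and Wnt5b marks the interval that lies at Fbxl14.

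No interval lay within 1 kb of Fzd3, Fzd6 or Fzd10. Fzd3 and Fzd6 have the 2 longest records of the family and act in planar cell polarity, the alignment of cells within a sheet. Their nearest intervals were 94.0 kb away, at Extl3, and 73.9 kb away, at Slc25a32 and Dcaf13. Fzd10 was the most isolated receptor, 415.2 kb from the nearest interval, at Ran, although its start is rich in CpG as the sequence above shows. The co-receptor Lrp5 had an interval of score 229.12 (chr19:3685533-3686631, 1099 bp), which also held the start of the long non-coding gene Gm36672. Lrp6 had a weak one of 88.67 (chr6:134567065-134567658, 594 bp), wholly outside its record by 152 bp. It was the gene nearest to the limit of the rule from within. The nearest from without was Wnt10b at 7.0 kb, and no uncounted gene of the set had an interval within 5 kb.

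Among the effectors, Axin2 had the strongest interval. Axin2 is a scaffold of the destruction complex and a textbook target of the pathway it restrains. Its interval scored 490.18 (chr11:108920204-108922447, 2244 bp, rank 125), reaching from 145 bp before the annotated start to 2098 bp after it. The other scaffold gene, Axin1, was the 1 effector without an interval, its nearest lying 35.5 kb away at Nme4.

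The remaining genes of the destruction complex, and beta-catenin, which it marks for breakdown, had best scores close to the list median. Apc, the tumour suppressor that binds beta-catenin, had 149.98 (chr18:34220615-34221836, 1222 bp), in an interval that overlapped the transcribed pseudogene Gm10548. Gsk3b, the kinase, had 135.11 (chr16:38087865-38090141), 2277 bp wide and nearly centred on the start, and also held the start of the long non-coding gene BC031361. Ctnnb1, beta-catenin itself, had 2 separate intervals, one over its starts with 125.04 (chr9:120933055-120933666, 612 bp) and a weaker one inside the gene with 85.62 (chr9:120934154-120934789, 636 bp). The first stood only just above the median of the list.

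All 3 Dishevelled genes, which carry the signal from the receptor, had an interval within 1 kb of the start. Dvl1 had 164.57 (chr4:155847594-155848454, 861 bp), lying from 192 to 1052 bp inside the gene. A second one at its far end, with 102.46 (chr4:155859107-155859931, 825 bp), overlapped the end of Tas1r3. Dvl3 had 140.23 (chr16:20516598-20517870, 1273 bp), in an interval that also held the start of the long non-coding gene Gm16618. Dvl2 had 85.52 (chr11:70000404-70001284, 881 bp), within 1 kb of the end of Phf23.

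All 4 Tcf and Lef genes, the DNA-binding partners of beta-catenin, had an interval. Tcf7l1, which mainly acts as a repressor, had 186.5 (chr6:72788092-72789733, 1642 bp). Tcf7l2 had 172.31 (chr19:55742278-55743303, 1026 bp) and a second, lower one of 77.67 beside it (chr19:55743483-55744622, 1140 bp). The higher of these overlapped the long non-coding gene Gm31734. Lef1 had 159.75 (chr3:131110919-131112092, 1174 bp), and Tcf7 had the lowest best score of the 4 with 100.43 (chr11:52282570-52283202, 633 bp). In Tcf7l2 and Lef1 the intervals lay inside the gene and left the annotated starts uncovered, whereas in Tcf7l1 and Tcf7 they lay over a start.

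Of the 8 ligand genes counted, 3 had their intervals only near a second protein-coding gene. Over all protein-coding genes with an interval that share was 26.9%. The best score of the whole set, 643.65 (chr6:119479770-119481377, 1608 bp, rank 50), was counted for Wnt5b but lay 905 bp (midpoint) inside Fbxl14, an F-box protein gene within the 112294 bp Wnt5b record. A second interval there, of 82.04 (chr6:119478682-119479542, 861 bp), lay just before the Fbxl14 start. None of the 3 annotated starts of Wnt5b had an interval within 1 kb. Likewise the interval counted for both Wnt3 and Wnt9b (82.89, chr11:103773940-103774773, 834 bp) covered the start of Wnt3 and lay 24536 bp (midpoint) before the annotated start of Wnt9b. The records of these 2 genes overlap by 1098 bp.

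Of the 15 ligands with an annotated start, 4 had an interval within 1 kb of a start (26.7%), where the background was 28.0%. Of the counted ligands, Wnt5a and Wnt7b had no annotated start to use. Wnt4, the ovary-promoting ligand, had 168.84 (chr4:137277568-137278452, 885 bp), reaching from 67 bp before its start to 817 bp after it. Wnt11, which signals mostly without beta-catenin, had 142.23 (chr7:98834637-98835576, 940 bp), inside the record of the long non-coding gene Gm33770. Wnt3, with 82.89, and Wnt2b, with 76.31 (chr3:104961198-104961827, 630 bp), were near the lowest score of the list. Wnt5a, the ligand tied to spermatogonial stem cells, had 2 intervals inside its record, of 142.81 (chr14:28504924-28506235, 1312 bp) and 84.36 (chr14:28510012-28510660, 649 bp). Wnt7b had 87.08 (chr15:85581300-85582082, 783 bp) across an end of its record, which there overlaps the long non-coding gene AU022754.

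The other 11 ligands, Wnt1, Wnt2, Wnt3a, Wnt6, Wnt7a, Wnt8a, Wnt8b, Wnt9a, Wnt10a, Wnt10b and Wnt16, had no interval. The smallest distance was that of Wnt10b, 7.0 kb from a strong interval at Arf3 (406.08), and the largest that of Wnt16, at 555.1 kb. Several Wnt genes lie in neighbouring pairs, and 4 pairs of records lay under 20 kb apart. Wnt6 and Wnt10a are separated by 6.7 kb, Wnt10b and Wnt1 by 11.7 kb, Wnt3a and Wnt9a by 16.1 kb, and Wnt9b and Wnt3 overlap. Both genes of the first 3 pairs lacked an interval, and the last pair shared its 1 interval.

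R-spondins are secreted proteins that strengthen Wnt signals through Lgr receptors by removing Znrf3 and Rnf43, ubiquitin ligases that degrade Fzd receptors. Both R-spondin genes of the set, Rspo1 and Rspo3, lacked an interval, at 49.1 kb and 305.8 kb from the nearest. The receptor gene Lgr4 had 170.03 (chr2:109917836-109919169, 1334 bp) and Lgr5, a stem cell marker in several epithelia, had 83.15 (chr10:115587257-115588137, 881 bp). Znrf3 had 70.27 (chr11:5443776-5444286, 511 bp), at rank 6611 of 6632, and Rnf43 had none within 251.1 kb.

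Of the 5 secreted inhibitors, 3 had an interval. Sfrp proteins bind Wnt ligands, and Sfrp1 had 122.61 (chr8:23411569-23412559, 991 bp) and Sfrp2 had 96.18 (chr3:83765754-83766972, 1219 bp). Dkk1 and Dkk2 act on Lrp5 and Lrp6, and Dkk2 had 74.71 (chr3:132085385-132086147, 763 bp) while Dkk1 was 514.5 kb from the nearest interval. Dkk3, a divergent relative, was 66.1 kb away. All 3 scores lay below the median of the list, that of Sfrp1 only just.

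Strand and start were used for 37 of the 54 genes, with 47 starts in all. Within 1 kb of a start, an interval lay at 10 of 10 effectors, 5 of 6 Fzd receptors and 4 of 15 ligands with a start, where the background was 28.0% of 17492 protein-coding genes with a start. Over the whole set it was 22 of 37. The ligand share was then 26.7%. Over the same 15 ligands the whole record gave 6, and the 2 that dropped out were Wnt5b and Wnt9b. In 17 genes of the set a start lay inside an interval, a count for which no background was computed. Interval midpoints lay mostly inside the gene. They were downstream of the start in 20 of the 22 genes, with a median of 314 bp, against 78.1% and a median of 200 bp over the 4896 protein-coding genes with an interval at a start. By class median the Fzd midpoints were the farthest in, at 1063 bp over 5 genes, compared with 250 bp for the 10 effectors and 189 bp for the 4 ligands. Single genes overlapped, with Fzd4 at 104 bp and the effector Lef1 at 1182 bp. A wide interval that begins near the start has its midpoint farther in, so midpoint and width are not independent.

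**Figure D4:**
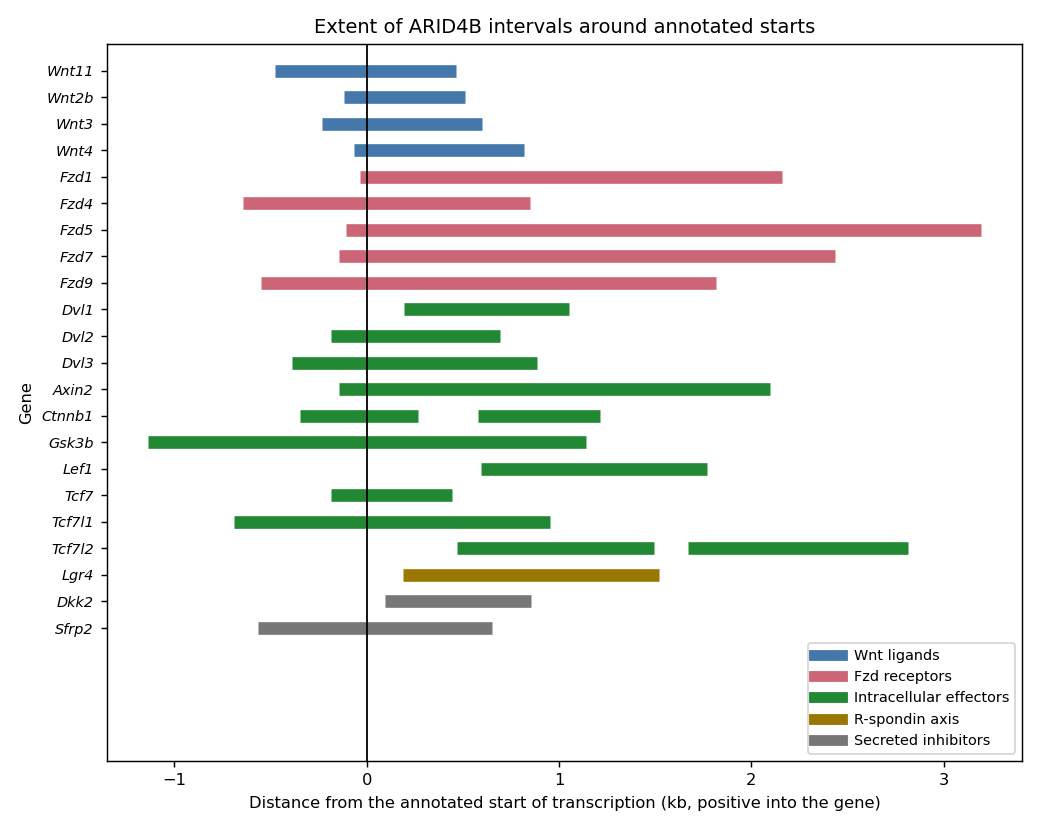
Extent of each interval in kb from the nearest annotated start, positive into the gene, for the 22 genes with an interval within 1 kb of a start, coloured by class. The bars of Fzd1, Fzd5, Fzd7 and Fzd9 reach at least 1814 bp into the gene, and that of Fzd4 reaches 849 bp. Among the effectors, Axin2 and Tcf7l2 reach 2098 and 2812 bp, and of the ligand bars that of Wnt4 reaches farthest in, 817 bp.

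Base composition at the start was compared next, since 84.1% of the starts with an interval in this list were CpG-rich. A start was called CpG-rich when its 300 bases had at least 50% G+C and a CpG count of at least 0.6 of that expected from the numbers of C and G. Among all 21263 protein-coding starts, 50.1% of the 9600 CpG-rich ones had an interval within 1 kb, and 7.81% of the others did. Most ligand starts were CpG-rich, 13 of 18, but 4 of these 13 had an interval (30.8%). All 11 CpG-rich effector starts and 5 of 6 Fzd starts, all CpG-rich, had one. By gene, Wnt1, Wnt2, Wnt3a, Wnt5b, Wnt6, Wnt7a, Wnt9a and Wnt9b each had a CpG-rich start and no interval within 1 kb of it. The 4 ligand starts with an interval had medians of 75.5% G+C and 0.94 for the CpG ratio, and the 14 without had 68.5% and 0.75. Some of the latter, as that of Wnt9a, were as CpG-rich as the former. Starts of 1 gene can share bases, and no test was made of these shares.

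**Figure D5:**
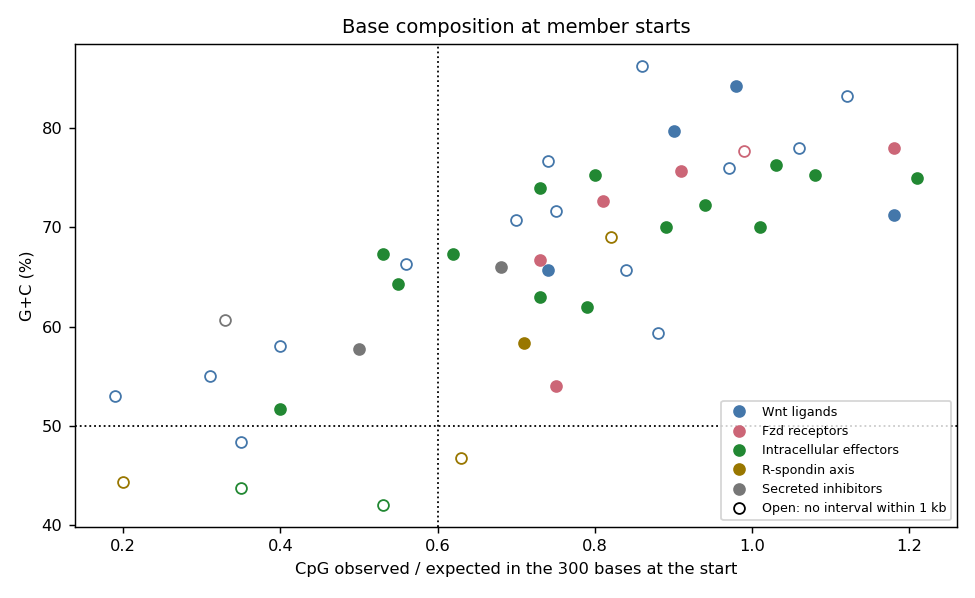
Ratio of observed to expected CpG and G+C percentage in the 300 bases at each of 47 annotated starts, coloured by class; filled points have an interval within 1 kb, open points do not, and dotted lines mark the limits for a CpG-rich start. Among the CpG-rich starts at the upper right, 9 of the 11 open points are ligands.

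Short motifs were searched on both strands of the same 300 bases. The GC box GGGCGG was present at 33 of the 47 starts, and at 46.2% of all protein-coding starts. It was found at 22 of the 26 starts with an interval and at 11 of the 21 without. Over all protein-coding starts these shares were 74.6% with an interval and 35.8% without. The Tcf/Lef core CTTTGA was found at 6 starts, 3 with an interval and 3 without (14.4% of all starts), and the A/T hexamer AAATTT at none (6.82% of all starts). A match is a run of letters and not a bound site.

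A further 112 genes around the pathway were counted by the same rule, and 60 of them (53.6%) had an interval, with a median best score of 141.7. For these genes and for each list below, the background was 30.7% of all protein-coding genes. The share differed widely between the lists, without a test. Of 22 genes for secretion and extracellular control, 5 had an interval (22.7%). These included Kremen2, a Dkk receptor (183.08, shared with Paqr4), the glycoprotein gene Reck (120.86), the Wnt-binding Sfrp4 (90.68) and Kremen1 (76.05). Porcn and Wls, needed to make and export every Wnt protein, had none, and neither had the extracellular inhibitors Wif1, Frzb, Sost and Notum.

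Other receptors and planar polarity genes had an interval at 12 of 20. The best were at the Wnt5a receptor Ror2 (297.22), the pseudokinase receptor Ptk7 (241.44, shared with Klc4), Prickle1 (240.51) and the adhesion receptor Celsr3 (209.79). Cytoplasmic regulators had one at 16 of 30, led by the casein kinase gene Csnk1d (731.65), the ubiquitin ligase scaffold Cul1 (327.13), the Gsk3-binding Frat2 (257.7) and the tankyrase gene Tnks (192.81). Csnk1a1, the kinase that primes beta-catenin, had one, and its ligase adaptor Btrc had none.

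Nuclear cofactors had the highest share of these lists, 17 of 22 (77.3%). The corepressor Ctbp2 scored 595.16 (shared with Gm35364), the acetyltransferase Ep300 488.61, the Groucho-family corepressor Tle1 433.54 and the beta-catenin cofactor Bcl9l 398.48. Of 21 textbook target genes outside the set, 11 had an interval (52.4%, 29.8 to 74.3%, which includes the background). Among them were the AP-1 genes Jun (617.69) and Fosl1 (293.95, shared with Ccdc85b), the Sertoli factor Sox9 (325.04) and the receptor Ephb2 (276.87). Myc, Ccnd1 and Nkd1 had one, and Sp5, Notum and Apcdd1 had none. Nkd1, Notum and Apcdd1 stand in 2 of these lists each.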

How the data were processed

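ARID4B binding was mapped by ChIP-seq in 1 pool of newborn testes beside 1 input library. BWA, MACS and build mm9 are named, per the submitters' processing notes, without versions or settings. The deposited list is named for mm10. The value of each interval is a score deposited by the authors. Its name calls it a p-value, but every value exceeds 70, so its scale is not known, and scores were used within the list only. Of the intervals, 69.98% reached the 1 kb either side of a protein-coding start in GRCm38.p6, and 4.33 or 4.27% did when moved by 5 kb, so positions were read as GRCm38 and are printed counting from 1.

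Gene records, starts and start sequences came from RefSeq tables of GRCm38.p6. Overlap and counts were computed with Python 3.11.15, pandas 2.3.3, NumPy 2.4.6 and SciPy 1.17.1 and figures with Matplotlib 3.10.9, and the overlap step was tested on simulated data. With 1 list and no replicate, no hypothesis test was run. Shares have 95% Clopper-Pearson intervals. Every one of the 54 genes is accounted for, and up to 4 best genes of each other pathway list are given with scores. Other names there, with or without an interval, were chosen after their values were seen. The genes, lists and comparisons were chosen with earlier results of these data known. Alternatives were another score limit, windows of 500 bp, 5 kb or none, midpoints, record ends, annotated starts, and intervals near no second protein-coding gene. Those by record length, and over genes with an annotated start, were added after seeing the data. Read depth and the input library's values were not analysed here.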

Additional observations from a re-analysis of the deposited data

How the results depend on the processing

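The 6 counts (whole set, ligands, Fzd receptors, effectors, other pathway genes and all protein-coding genes) stayed within 1.5 times of the reported value with windows of 500 bp, 5 kb or none, with midpoints, and with record ends only. Keeping intervals that score above the list median left 22 genes of the set, 4 ligands, 36 other pathway genes and 3650 protein-coding genes, while the effector and Fzd counts stayed within 1.5 times. Counting intervals within 1 kb of an annotated start gave 22 of 37 genes, 4 of 15 ligands and 33 of 82 other pathway genes. Fewer genes could be counted there, and the background was 28.0%. The whole record over the same genes gave 24 of 37, 6 of 15 and 40 of 82, where the background was 30.7%. Leaving out intervals near a second protein-coding gene left 5 ligands, by removing Wnt3, Wnt5b and Wnt9b. The ligand share was then 26.3%, near the background of 22.4%. Records under 10 kb held 9 of 14 genes of the set, 0 of 3 ligands, 1 of 1 effector, 14 of 29 other pathway genes and 1609 of 7925 protein-coding genes, and records of 10 kb or longer 0 of 2 Fzd receptors. A count of 0 among so few genes sets no useful upper limit. With no read depth, how many intervals fell short of the score limit near 70 is unknown, and genes without an interval may have had enrichment under it. No paired analysis was possible because there was 1 ChIP library and no test.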
